A study of Mus musculus with 14 samples.

Results

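Foxp3 and 9 genes of the surface and the Ikaros factors of regulatory T cells (Treg cells) were followed across 3 cultured subsets of mouse CD4+ T cells, each grown with and without acetate. The 10 genes are Foxp3, the Ikaros family genes Ikzf2 and Ikzf4, the surface genes Itgae, Nrp1, Gpr83 and Lrrc32, and the receptor genes Ctla4, Tnfrsf18 and Tnfrsf4. They were chosen by name, with earlier results of these data known. The shares of all genes given beside their counts are therefore no test of the set. Each gene was read from a probe set, the group of short probes on an Affymetrix array that reports 1 transcript. The probe set used carried the gene's symbol alone and had the highest mean over the 14 arrays. Of the 10, 9 had such a probe set and all 9 were among the 10916 genes tested, out of 18193 genes with a probe set of their own. Lrrc32, which encodes the receptor GARP that holds latent TGF-beta at the cell surface, was not analysed here.

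CD4+ T cells from mouse spleen, peripheral lymph nodes and mesenteric lymph nodes were polarised in vitro, and the RNA of each culture was hybridised to an array. Th17 cultures with acetate (n = 3) and without it (n = 3) received human IL-2, TGF-b1, IL-6, IL-1b, IL-23, IL-21 and TNF-a, with antibodies against IL-4 and IFN-gamma. Treg cultures with acetate (n = 2) and without it (n = 2) received human IL-2 and TGF-b1. Th1 cultures with acetate (n = 2) and without it (n = 2) received human IL-2, IL-12 and an antibody against IL-4, so IL-2 was common to all 6 groups. Acetate was used at 10 mM. For treated Treg and Th1 cultures the protocols say acetone, where the design text says sodium acetate for all. Culture lasted 5 days by the protocols and 6 to 7 by the design text. Strain, sex and age are not given. Whether replicate arrays stem from different animals or cultures is not said either, so p-values reflect the spread of these arrays alone, which may be technical.

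Foxp3 is the forkhead transcription factor that defines Treg cells, and TGF-beta with IL-2 induces it in naive CD4+ T cells in culture. In the presence of IL-6 the same TGF-beta signal drives Th17 differentiation instead, and cells on that path can carry Foxp3 for a time. Foxp3 acts in a complex with other factors, among them the Ikaros family proteins Helios (Ikzf2) and Eos (Ikzf4), and Treg cells are recognised by surface proteins such as CTLA-4, GITR (Tnfrsf18), OX40 (Tnfrsf4), neuropilin-1 (Nrp1) and CD103 (Itgae), several of which activated T cells of other kinds also carry. Acetate is a short chain fatty acid produced by gut bacteria.

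The promoter windows of the genes that fell together with acetate and had an entry in the RefSeq promoter table (build GRCm38.p6) are printed here, with that of Tnfrsf18 as a receptor gene that was not called in any acetate comparison. Foxp3 lies on chromosome X at 7579676-7595243 and has windows at 2 start sites. Each window runs 5′ to 3′ on the + strand, and capitals mark matches on either strand to GGAAA (the core bound by NFAT factors), CAGAC (bound by Smad factors, which carry TGF-beta signals) or AGATAA (bound by GATA factors).
Foxp3, first start site, chrX:7579426-7579725: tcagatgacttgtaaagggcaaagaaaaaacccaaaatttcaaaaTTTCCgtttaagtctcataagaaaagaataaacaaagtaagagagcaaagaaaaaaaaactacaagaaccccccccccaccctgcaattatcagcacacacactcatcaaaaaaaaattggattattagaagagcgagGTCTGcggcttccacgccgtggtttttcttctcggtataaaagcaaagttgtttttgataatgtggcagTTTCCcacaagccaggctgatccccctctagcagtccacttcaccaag
Foxp3, second start site, chrX:7580233-7580532: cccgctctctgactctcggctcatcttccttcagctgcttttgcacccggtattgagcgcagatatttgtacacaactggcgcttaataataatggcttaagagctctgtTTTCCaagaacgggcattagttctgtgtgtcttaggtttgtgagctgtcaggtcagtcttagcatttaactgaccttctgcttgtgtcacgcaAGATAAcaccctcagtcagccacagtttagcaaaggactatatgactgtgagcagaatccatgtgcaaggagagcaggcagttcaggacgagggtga
Nrp1, chr8:128358823-128359122: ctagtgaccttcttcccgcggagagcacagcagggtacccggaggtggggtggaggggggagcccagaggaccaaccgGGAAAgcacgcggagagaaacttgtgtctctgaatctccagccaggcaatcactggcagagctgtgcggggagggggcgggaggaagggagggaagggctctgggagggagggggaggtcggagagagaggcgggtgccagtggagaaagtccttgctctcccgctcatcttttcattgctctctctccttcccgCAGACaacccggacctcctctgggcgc
Gpr83, chr9:14859960-14860259: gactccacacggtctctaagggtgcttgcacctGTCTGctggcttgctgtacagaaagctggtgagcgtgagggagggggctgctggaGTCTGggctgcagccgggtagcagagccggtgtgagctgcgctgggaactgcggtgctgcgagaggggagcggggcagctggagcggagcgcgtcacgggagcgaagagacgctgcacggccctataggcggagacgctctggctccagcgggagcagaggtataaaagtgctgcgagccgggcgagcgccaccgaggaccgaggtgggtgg
Tnfrsf18, chr4:156026072-156026371: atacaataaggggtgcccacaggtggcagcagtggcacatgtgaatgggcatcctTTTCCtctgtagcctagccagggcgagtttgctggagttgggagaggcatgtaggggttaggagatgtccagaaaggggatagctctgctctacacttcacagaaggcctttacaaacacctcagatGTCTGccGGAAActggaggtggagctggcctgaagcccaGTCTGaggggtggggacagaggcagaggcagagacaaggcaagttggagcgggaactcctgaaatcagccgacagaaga
The first Foxp3 window held GGAAA 2 times and CAGAC 1 time, and the second held GGAAA 1 time and AGATAA 1 time. Nrp1 held GGAAA and CAGAC 1 time each, Gpr83 held CAGAC 2 times, and Tnfrsf18 held GGAAA 2 times and CAGAC 2 times. The windows of Ctla4 and Tnfrsf4, which are not printed, held GGAAA 1 time each. TGTGGT (the core bound by Runx factors) and GTAAACA (bound by forkhead factors) were in 0 of the 7 windows of the 6 genes that had one. Among all 32851 windows of the table, 61.34% held GGAAA, 49.59% CAGAC, 11.18% AGATAA, 16.76% TGTGGT and 3.65% GTAAACA. These are matches of letters, and the motifs were not tested for use in these cells. Ikzf2, Ikzf4 and Itgae are named only.

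With acetate Foxp3 and several of the surface genes were lower in the cultures that contained TGF-beta, while the abundant receptor genes were not called. A gene was called where its difference in mean log2(signal + 3) had an adjusted p under 0.05 in limma. In Th17 cultures 5 of the 9 genes were lower with acetate (Foxp3, Nrp1, Itgae, Ikzf4 and Gpr83), where 17.7% of all genes tested were called and 13.4% were called lower. In Treg cultures 3 of 9 were lower (Foxp3, Nrp1 and Itgae), where 5.04% of all genes were called and 2.73% were called lower. In Th1 cultures limma called 0 of 9, where 2.04% of all genes were called, and 3 of the 9 (Ctla4, Ikzf4 and Tnfrsf18) had an unadjusted p under the threshold. The share of all genes at an unadjusted p under the threshold was not counted, here or below. The mean effect over the 3 subsets was called lower for 5 of 9 (Foxp3, Nrp1, Itgae, Ikzf4 and Gpr83), where 11.8% of all genes were called lower. The median log2 difference of the 9 genes was -1.26 (Th17), -1.07 (Treg) and -0.34 (Th1), beside -0.29, -0.13 and 0.23 over all genes tested.

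The arrays were not on a common scale, and this bears on every difference given here. The trimmed mean signal lay between 53.2 (Th1 control replicate 2) and 116.0 (Th17 control replicate 1). After quantile normalization, which gives every array the same distribution, the counts of called genes were 4 in Th17 cultures (8.67% of all genes called lower), 2 in Treg (5.45%) and 1 in Th1 (1.92%), all lower. Of the subset markers, Il17a lay between 641 and 5894 in Th17 arrays and at or below 14.01 in all others, and Tbx21 at 194 to 496 in Th1 arrays and 16.8 to 207 in the others. The other Th1 markers set the Th1 cultures less apart. Il12rb2 lay at 136 to 293 in Th1 arrays and 25.2 to 144 in the others, and Ifng at 678 to 2760 in Th1 control arrays, where it overlapped with Th17 and Treg arrays of either kind, and at 9145 to 11049 in Th1 arrays with acetate. Cxcr3 was not highest in Th1 cultures, with means of 91.8 in Th1 cultures with acetate and 69.8 without, beside 241 and 412 in Treg cultures and 277 and 71.3 in Th17 cultures. Of the Treg markers, Foxp3 and Ikzf2 were highest in Treg control cultures, and Ctla4 in Th17 control cultures. Il2ra, which encodes the IL-2 receptor alpha chain, had its lowest mean in Treg control cultures (458), beside 812 in Th1 and 1587 in Th17 control cultures. Its mean in Treg cultures with acetate was 1306. The T cell genes Cd3e, Cd3d, Cd4 and Cd2 were measured on every array, and the other markers of that list, Trac and Lck, were not analysed here. The 3′ control of 18S ribosomal RNA ranged over 2809 to 4149 in the Th17 subset and over 298 to 1576 in the Th1 subset. In the Treg subset its signals were 3134 for control replicate 1 and 506 to 816 for the rest. The part of these differences in the results was not tested.

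Foxp3 was lower with acetate in both of the cultures that received TGF-beta, and low in Th1 cultures of either kind. In Th17 cultures it had signals of 13.3, 7.47 and 24.5 with acetate, against 154, 55.8 and 137 in control cultures. The highest acetate array lay below the lowest control array. In Treg cultures Foxp3 had 43.7 and 55.4 with acetate, against 295 and 312 in control cultures. All 4 values of the Treg cultures exceeded every Th1 value: in Th1 cultures Foxp3 had 12.8 and 10.7 with acetate, against 12.1 and 9.79 in control cultures. The log2 difference was -2.70 ± 0.37 in Th17 cultures (SE, adjusted p = 8.12e-05) and -2.55 ± 0.46 in Treg cultures (adjusted p = 0.0018). In Th1 cultures it was 0.09 (95% interval -0.86 to 1.03), at signals close to the level of 9.10 under which genes were left out of the test. Neither of the first 2 calls was lost in any of the 20 alternatives, and the log2 difference ranged over them from -3.15 to -2.02 in Th17 and from -2.71 to -2.29 in Treg cultures. RNA came from whole cultures, so fewer Foxp3-expressing cells and less Foxp3 RNA per cell cannot be told apart.

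**Figure D1:**
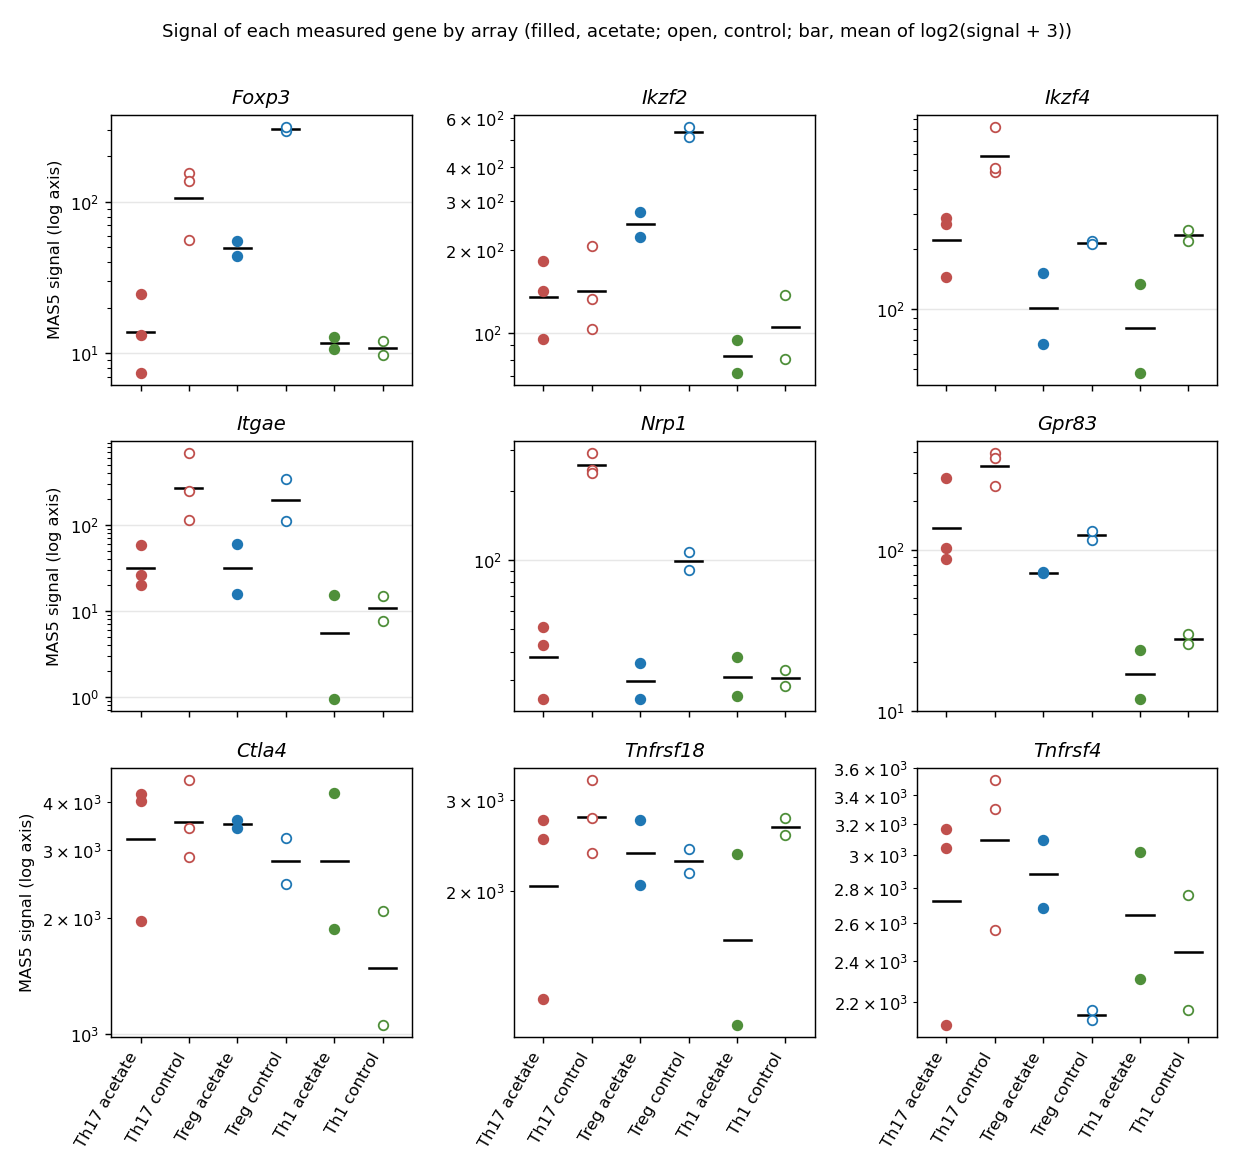
MAS5 signal of the 9 measured genes on each of the 14 arrays (log axes), by subset, with acetate (filled circles) left of control (open circles) and bars at the mean of log2(signal + 3). The acetate arrays of Th17 and Treg cultures lie below the control arrays for Foxp3, Itgae and Nrp1, while Ctla4, Tnfrsf18 and Tnfrsf4 have signals of at least 1054 on all arrays.

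The order of Foxp3 over the 6 groups was Treg control (303 ± 11.9, SD, n = 2), Th17 control (116 ± 52.6, n = 3), Treg with acetate (49.6 ± 8.30, n = 2), Th17 with acetate (15.1 ± 8.65, n = 3), Th1 with acetate (11.8 ± 1.48, n = 2) and Th1 control (10.9 ± 1.60, n = 2). The 3 lowest groups overlapped with their neighbours in this order, and the 3 highest did not. Th17 cultures with acetate were not set apart from Th1 cultures with acetate, with a log2 difference of 0.18 (95% interval -0.68 to 1.05, adjusted p = 0.90). Treg cultures with acetate had more Foxp3 than Th1 cultures with acetate on every array, a log2 difference of 1.83 that missed the threshold (adjusted p = 0.058) and passed it after quantile normalization (adjusted p = 0.027).

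Of the Ikaros pair, Ikzf4 was lower with acetate and Ikzf2 was highest in Treg cultures. Ikzf4 had 146, 268 and 286 in Th17 cultures with acetate, against 818, 488 and 508 in control cultures. The groups did not overlap, and the log2 difference was -1.38 ± 0.35 (adjusted p = 0.010). The call was lost without Th17 control replicate 1, the array with the highest value (adjusted p = 0.089). In Treg cultures Ikzf4 had 153 and 67.3 with acetate, against 220 and 212 in control cultures, a difference of -1.07 that was not called (adjusted p = 0.18). In Th1 cultures it had 134 and 48.2 with acetate, against 249 and 220 in control cultures, a difference of -1.50 with an adjusted p of 0.074. This last value passed after quantile normalization (adjusted p = 0.039) and without Th17 acetate replicate 1 or Th1 acetate replicate 1 (adjusted p = 0.025 and 0.0022). Ikzf4 was the one gene of the 9 whose acetate arrays lay below the control arrays of the same subset in each of the 3 subsets. The share of all genes tested that do so was not counted, and groups of 2 arrays separate easily. Its mean effect over the subsets was -1.32 ± 0.24 (adjusted p = 3.52e-04).

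Ikzf2 had 142, 182 and 94.97 in Th17 cultures with acetate, against 206, 104 and 132 in control cultures. The arrays of the 2 groups interleaved, and the log2 difference was -0.07 (95% interval -0.69 to 0.56). In Treg cultures it had 224 and 275 with acetate, against 558 and 515 in control cultures. These arrays did not overlap, but the log2 difference of -1.10 was not called (95% interval -1.87 to -0.34, adjusted p = 0.092, or 0.0504 after quantile normalization). In Th1 cultures it had 94.1 and 71.8 with acetate, against 80.7 and 137 in control cultures. Treg arrays of either kind were above all Th17 and Th1 arrays.

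Itgae and Nrp1 fell with acetate in both TGF-beta cultures, and Gpr83 in Th17 cultures. Itgae encodes the alpha chain of the integrin CD103, which binds E-cadherin on epithelium. It had 26.0, 20.3 and 58.5 in Th17 cultures with acetate, against 678, 116 and 246 in control cultures, and the log2 difference was -2.98 ± 0.59 (adjusted p = 0.0017). In Treg cultures it had 15.7 and 60.3 with acetate, against 340 and 111 in control cultures. The groups did not overlap in either subset, though the control arrays differed widely among themselves. The Treg difference of -2.52 ± 0.72 stood at an adjusted p of 0.043. It was not called in 9 of 20 alternatives, with quantile normalization (adjusted p = 0.062), a pseudocount of 1 (0.074), no filter (0.094) and the mean of probe sets (0.058), and without Th17 control replicate 1 (0.058), Th17 control replicate 2 (0.060), Treg acetate replicate 1 (0.52), Treg control replicate 1 (0.48) or Treg control replicate 2 (0.058). In Th1 cultures Itgae had 15.4 and 0.953 with acetate, against 7.71 and 15.2 in control cultures, all low values with no order between the groups.

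Nrp1 encodes neuropilin-1, a co-receptor for semaphorins that in the mouse is used to tell thymus-derived Treg cells from induced ones. It had 42.6, 25.01 and 51.1 in Th17 cultures with acetate, against 291, 246 and 240 in control cultures. The spread within each group was small beside the gap, with a log2 difference of -2.67 ± 0.30 (adjusted p = 6.09e-06), called in all 20 alternatives. In Treg cultures it had 24.9 and 35.5 with acetate, against 90.7 and 109 in control cultures, a difference of -1.64 ± 0.36 (adjusted p = 0.0085). The Treg call was lost without Treg acetate replicate 1, Treg control replicate 1 or Treg control replicate 2 (adjusted p = 0.18, 0.0501 and 0.10). In Th1 cultures Nrp1 had 37.8 and 25.6 with acetate, against 28.5 and 33.2 in control cultures, a difference of 0.02 (95% interval -0.73 to 0.77). Mean Nrp1 signals with acetate were 39.6 (Th17), 30.2 (Treg) and 31.7 (Th1), beside 30.8 in untreated Th1 cultures.

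Gpr83, a G protein-coupled receptor gene found in Treg cell signatures, had 102, 87.5 and 280 in Th17 cultures with acetate, against 394, 246 and 372 in control cultures. Th17 acetate replicate 3 lay inside the control range, and the log2 difference was -1.26 ± 0.35 (adjusted p = 0.017). This call was lost after quantile normalization (adjusted p = 0.074) and without Th17 acetate replicate 1 (0.058), Th17 acetate replicate 2 (0.10), Th17 control replicate 1 (0.094) or Th17 control replicate 3 (0.068). In Treg cultures Gpr83 had 71.5 and 72.2 with acetate, against 115 and 131 in control cultures, a difference of -0.75 that was not called (adjusted p = 0.38). In Th1 cultures it had 23.9 and 11.9 with acetate, against 30.1 and 26.1 in control cultures. Th17 arrays of either kind were above all Th1 arrays, and so were Treg arrays.

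The inhibitory receptor gene Ctla4 and the co-stimulatory receptor genes Tnfrsf18 and Tnfrsf4 were abundant in all 6 groups and were not called in any acetate comparison. Ctla4 had 1967, 4018 and 4181 in Th17 cultures with acetate, against 4554, 2879 and 3413 in control cultures. In Treg cultures it had 3581 and 3427 with acetate, against 3213 and 2449.9 in control cultures, and the groups did not overlap. In Th1 cultures it had 4218 and 1871 with acetate, against 2085 and 1054 in control cultures. The log2 differences of Ctla4 were -0.15 (95% interval -0.79 to 0.50), 0.32 (-0.47 to 1.11) and 0.92 (0.13 to 1.71), the last with an adjusted p of 0.21, or 0.044 without Th1 acetate replicate 2. The intervals in Th17 and Treg cultures leave out a loss of the size seen for Foxp3.

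Tnfrsf18 and Tnfrsf4 are neighbours on chromosome 4 (156026322-156028894 and 156013595-156016613, GRCm38.p6). Tnfrsf18 had 1240.2, 2743 and 2528 in Th17 cultures with acetate, against 3282, 2375 and 2772 in control cultures. In Treg cultures it had 2744 and 2058 with acetate, against 2412 and 2169 in control cultures. In Th1 cultures it had 2362 and 1104 with acetate, against 2568 and 2766 in control cultures, the one subset in which the groups did not overlap. Its log2 differences were -0.44 (95% interval -1.03 to 0.14), 0.05 (-0.66 to 0.77) and -0.72 (-1.44 to -0.0026), the last with an adjusted p of 0.29, or 0.038 without Th1 acetate replicate 1. Tnfrsf4 ranged from 2095 to 3170 with acetate, against 2119 to 3514 in control cultures, over all subsets. In Treg cultures its groups did not overlap, with 3094 and 2680 with acetate, against 2161 and 2119 in control cultures. Its log2 differences were -0.19 (95% interval -0.64 to 0.27) in Th17 cultures, 0.43 (-0.13 to 0.98) in Treg cultures and 0.11 (-0.44 to 0.67) in Th1 cultures.

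Ranked by their means over the 6 groups, the other genes fell into different orders. Ikzf4 was highest in Th17 control cultures, whose arrays lay above all others, and lowest in the acetate cultures of Treg and Th1, which overlapped each other. Nrp1 was highest in Th17 control and then in Treg control cultures, while the other 4 groups overlapped with their neighbours. Itgae formed 3 levels, with the Th17 and Treg control cultures overlapping at the top, their acetate cultures overlapping below them and both Th1 groups overlapping at the bottom. The lower levels were barely apart, with the lowest Treg acetate array at 15.7 and the highest Th1 array at 15.4. With acetate, limma did not call Itgae in Th17 or Treg cultures against Th1 cultures (adjusted p = 0.099 and 0.25). Gpr83 was highest in Th17 control cultures and lowest in Th1 cultures with acetate. For Tnfrsf18 every group overlapped with its neighbour in the order, for Tnfrsf4 all but Treg control cultures at the bottom did so, and for Ctla4 all but Th1 control cultures at the bottom.

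**Figure D2:**
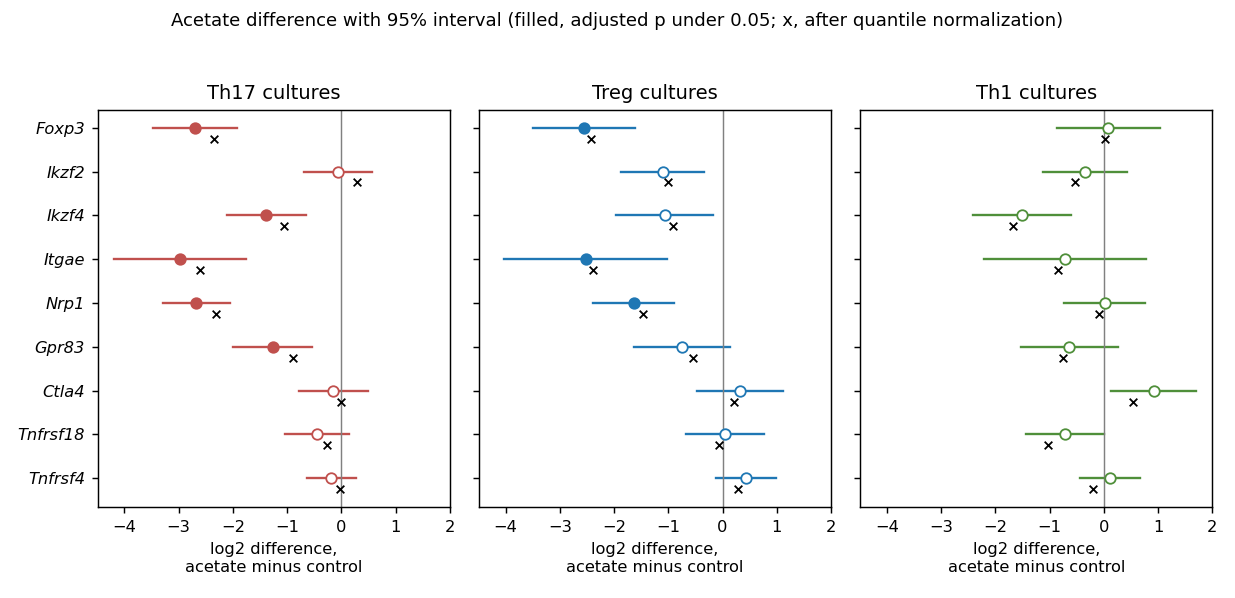
Log2 difference of each gene, acetate minus control, in Th17, Treg and Th1 cultures, with 95% intervals from limma (circles filled where the adjusted p is under 0.05) and the value after quantile normalization (crosses). Foxp3, Itgae and Nrp1 are filled in both the Th17 and the Treg panel, 5 genes are filled in the Th17 panel, and no gene is filled in the Th1 panel.

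Whether the acetate effect differed between subsets was tested with limma's F test on the 3 effects. It passed for Foxp3 (adjusted p = 0.042) and Nrp1 (adjusted p = 0.015), 2 of the 9 genes, where 0.705% of all genes passed. For Nrp1 the Th17 effect minus the Th1 effect was -2.69 ± 0.47 on the log2 scale (adjusted p = 0.024), a pairwise difference called lower for 1 of the 9 genes, and for 0.101% of all genes. The median of this pairwise difference over all genes was -0.50. After quantile normalization it was -2.23 for Nrp1 and was not called (adjusted p = 0.091), where 0% of all genes were called lower. For Foxp3 the Th17 effect minus the Th1 effect was -2.79 ± 0.59 (adjusted p = 0.058), and the Treg effect minus the Th1 effect was -2.64 ± 0.65 (adjusted p = 0.072). The Th17 effect minus the Treg effect of Foxp3 was -0.15 (95% interval -1.37 to 1.07). Mean signals in untreated Th1 cultures were 10.9 for Foxp3 and 30.8 for Nrp1. The Foxp3 result was lost in 10 of the 20 alternatives (adjusted p up to 0.12) and the Nrp1 result in 5, among them quantile normalization (adjusted p = 0.055). For Ikzf4 the Th17 effect minus the Th1 effect was 0.12 (95% interval -1.04 to 1.28).

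Markers of the T cells themselves also moved with acetate. The summed signal of Cd3e, Cd3d, Cd4 and Cd2 was 3642 to 7252 with acetate, against 7085 to 11880.4 in control cultures of the Th17 subset. It was 5325 to 5666 with acetate, against 7972 to 8782 in Treg control cultures, and 4850.5 to 5963 with acetate, against 7059 to 7478 in Th1 control cultures. All 4 were called lower for the mean effect over the subsets, with a median log2 difference of -0.67, which compares with -1.72 for Foxp3, -1.43 for Nrp1, -2.07 for Itgae, -1.32 for Ikzf4 and -0.88 for Gpr83. Limma called 1 of the 4 in Th17 cultures and 0 in Treg and Th1 cultures, where 3 and 1 had an unadjusted p under the threshold. The part of this shift in the genes' differences was not tested.

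Markers of other cells were low beside the sum of these T cell genes. The CD8 genes, however, were not low beside Cd4 alone in Th17 and Treg cultures with acetate. The 2 CD8 genes summed to 185 to 325 in Th17 cultures with acetate, against 52.9 to 321 in control cultures, and 1 of the 2 was called higher. Cd4 lay at 160 to 295 in Th17 cultures with acetate, against 329 to 463 in control cultures. In Treg cultures the CD8 genes summed to 218 to 222 with acetate, against 169 to 235 in control cultures. Cd4 lay there at 225 to 316 with acetate, against 460 to 492 in control cultures. The 3 mast cell genes, of which Kit is also found on other cells, summed to 20.3 to 45.6 in Th17 cultures with acetate, against 69.5 to 138 in control cultures, and both of the 2 tested were called lower. Of the NK cell list 2 of 3 genes were measured, summing to 67.2 to 71.2 in Treg cultures with acetate, against 18.2 to 25.2 in control cultures, and to 34.6 to 57.8 in Th1 cultures with acetate, against 10.4 to 14.6 in control cultures. In Th17 cultures they summed to 78.8 to 127 with acetate, against 44.6 to 95.8 in control cultures. Klre1, the 1 NK cell gene tested, was called higher in Treg cultures (log2 difference 1.67, adjusted p = 0.023) and in Th1 cultures (2.15, adjusted p = 0.0075). It was not called in Th17 cultures (0.82, adjusted p = 0.10). The 5 macrophage genes summed to 96.1 to 191 in Th17 cultures with acetate, against 72.3 to 120 in control cultures. They summed to 150 to 173 in Treg cultures with acetate, against 113 to 118 in control cultures, and to 87.7 to 196 in Th1 cultures with acetate, against 78.5 to 137 in control cultures. Of the 3 tested, Cd68 was called higher in Th17 cultures, at a mean signal of 94.4 with acetate, against 24.2 in control cultures (log2 difference 1.83, adjusted p = 0.0045). Of the B cell and dendritic cell lists 4 of 5 and 5 of 6 genes were measured, with sums of 27.4 to 106 and 15.4 to 66.9 over the 14 arrays, and the 1 gene tested of each was not called in any acetate comparison. Their part in the differences of the 9 genes was not tested.

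Without acetate, Foxp3, Itgae, Nrp1 and Gpr83 were higher in Th17 and in Treg cultures than in Th1 cultures, 2 comparisons that share the Th1 control arrays. In Th17 against Th1 cultures 6 of the 9 genes were higher, where 26.6% of all genes were called higher, with log2 differences of 4.29 for Itgae, 3.43 for Gpr83, 2.97 for Foxp3, 2.95 for Nrp1, 1.32 for Ikzf4 and 1.26 for Ctla4. All genes tested had a median of 0.62 in this comparison. After quantile normalization 4 of the 6 were called (3% of all genes called higher), with Ikzf4 at 0.64 (adjusted p = 0.32) and Ctla4 at 0.79 (adjusted p = 0.18) no longer among them. Ikzf4 was also lost without Th17 control replicate 1 or either Th1 control array (adjusted p = 0.12, 0.054 and 0.14), and Ctla4 without Th17 control replicate 1 or Th1 control replicate 2 (0.098 and 0.23).

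In untreated Treg against Th1 cultures 5 of the 9 genes were higher, where 1.87% of all genes were called higher. The log2 differences were 4.46 ± 0.46 for Foxp3 (adjusted p = 1.60e-06), 3.83 ± 0.72 for Itgae, 2.32 ± 0.37 for Ikzf2, 2.02 ± 0.43 for Gpr83 and 1.60 ± 0.36 for Nrp1. After quantile normalization the count was again 5 (2.86% of all genes called higher). Foxp3 and Ikzf2 kept their calls in all 20 alternatives. Itgae lost its call without Treg control replicate 1 (adjusted p = 0.14), Gpr83 without either Treg control array or Th1 control replicate 2 (0.082, 0.11 and 0.055), and Nrp1 with the mean of probe sets (0.080) and without any 1 of the 4 arrays compared (0.052 to 0.16). Ikzf4 stood at -0.12 (95% interval -1.01 to 0.78), Tnfrsf18 at -0.22 (-0.94 to 0.50) and Tnfrsf4 at -0.19 (-0.75 to 0.36).

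The untreated Th17 and Treg cultures shared TGF-beta and differed in which of the genes they held at the higher level. Th17 cultures had less Foxp3 (log2 difference -1.49 ± 0.42, adjusted p = 0.020) and less Ikzf2 (-1.90 ± 0.34, adjusted p = 5.54e-04). They had more Ikzf4 (1.43 ± 0.40), Gpr83 (1.41 ± 0.39) and Nrp1 (1.35 ± 0.33), so that 2 of the 9 genes were called lower and 3 higher, where 2.09% of all genes were called lower and 12.2% higher. The median of all genes was 0.41 here, and after quantile normalization the 2 lower genes were called and the 3 higher ones were not (adjusted p = 0.11 for Ikzf4, 0.12 for Gpr83 and 0.060 for Nrp1), where 6.01% of all genes were called lower and 5.32% higher. The Foxp3 call was lost without Th17 control replicate 2 or either Treg control array (adjusted p = 0.056, 0.088 and 0.20). Itgae did not differ detectably, at 0.46 (95% interval -0.91 to 1.83). The same control arrays enter the acetate comparisons.

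Fewer of the genes were called between subsets with acetate than without it, as was so over all genes tested. Not every gap was narrower: the Th17 minus Treg difference of Foxp3 was -1.64 with acetate and -1.49 without, and the Th17 minus Th1 difference of Ikzf4 was 1.44 with acetate and 1.32 without. Th17 against Th1 cultures with acetate differed in Gpr83 (log2 difference 2.80 ± 0.39) and Ikzf4 (1.44 ± 0.40), 2 of 9 genes, both higher, where 2.84% of all genes were called higher. Gpr83 kept its call in all 20 alternatives. Ikzf4 (adjusted p = 0.041) lost it in 11 of them, among others after quantile normalization (0.067), with no filter (0.066), with the mean of probe sets (0.15) and without Th17 acetate replicate 2 or 3, Th17 control replicate 1 or 2, either Treg control array or Th1 acetate replicate 2 (0.055 to 0.94). Treg against Th1 cultures with acetate differed in Gpr83 (1.90 ± 0.43, adjusted p = 0.029) and Ikzf2 (1.56 ± 0.37, adjusted p = 0.041), also 2 of 9 and both higher, where 0.531% of all genes were called higher. In this comparison Gpr83 lost its call with a pseudocount of 16, no filter or the mean of probe sets, and without Th17 control replicate 1 or 2, either Treg acetate array or Th1 acetate replicate 2 (adjusted p = 0.057 to 0.31). Ikzf2 lost it with no filter or the mean of probe sets, and without Th17 control replicate 2 or 3, any Treg array or Th1 acetate replicate 2 (adjusted p = 0.051 to 0.47). For Th17 against Treg cultures with acetate limma called 0 of 9, where 0.705% of all genes were called. Before adjustment 4 of the 9 had a p under the threshold, a count to which that share does not apply. Foxp3 was lower there by a log2 difference of -1.64 ± 0.42 (adjusted p = 0.067, or 0.017 after quantile normalization).

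**Figure D3:**
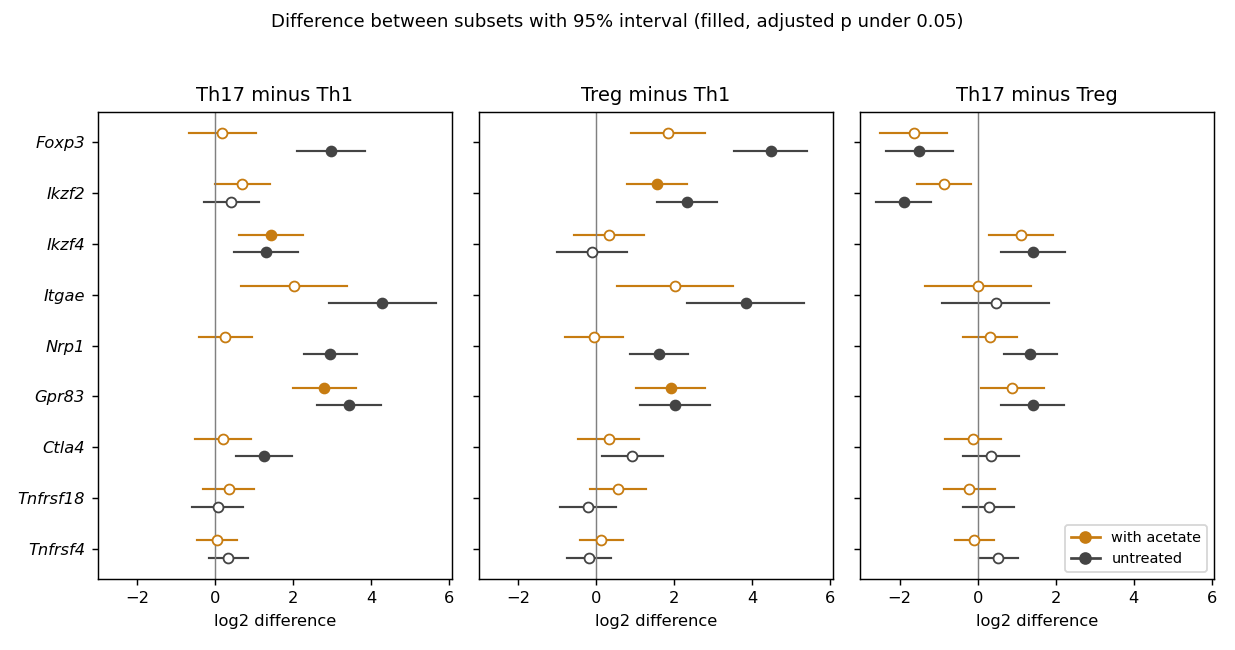
Log2 difference of each gene between subsets, with acetate (orange) and untreated (dark), with 95% intervals from limma (filled where the adjusted p is under 0.05). In Th17 minus Th1 the untreated points of Foxp3, Itgae and Nrp1 lie at 2.95 to 4.29, while those with acetate lie between 0.18 and 2.02 and are open.

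Further probe sets were available for 5 of the genes, 9 in all, and were fitted together with every other probe set that had 1 symbol (34945). In Th17 cultures 6 of these 9 were called lower with acetate, where 3.87% of all probe sets were called lower. This fit had no filter on the signal level, so its shares are not comparable with those over the genes tested. Probe sets of the same gene were read on the same arrays and are not independent. The other 3 Nrp1 probe sets were at log2 differences of -2.95, -3.16 and -1.99, the second Itgae probe set at -2.45, the second Gpr83 probe set at -1.40 and a second Ikzf4 probe set at -1.28. The third Ikzf4 probe set, with a mean signal of 8.57, was at -1.65 and was not called (adjusted p = 0.083), and the 2 further Ikzf2 probe sets were at -0.20 and -0.41 and were not called. In Treg cultures 1 of the 9 was called, a second Nrp1 probe set at -2.37 (adjusted p = 0.042), where 0.624% of all probe sets were called lower. The second Itgae probe set was at -1.75 in Treg cultures (adjusted p = 0.14), and in this larger fit the first one was not called either (adjusted p = 0.13). A second Ikzf2 probe set was higher in untreated Treg than in Th1 cultures by 2.93 (adjusted p = 0.0088, where 0.547% of all probe sets were called higher), while the remaining Ikzf2 probe set, with a mean signal of 4.72, was not (0.55, adjusted p = 0.86).

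**Figure D4:**
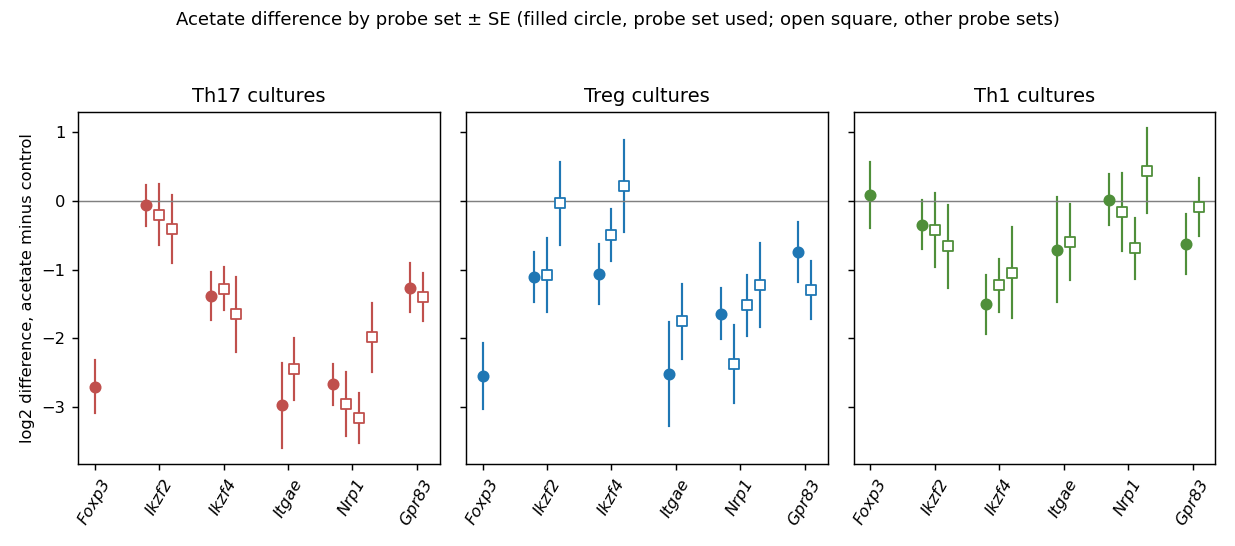
Log2 difference, acetate minus control (± SE), for the probe set used (filled circles) and the other probe sets (open squares) of Foxp3, Ikzf2, Ikzf4, Itgae, Nrp1 and Gpr83, in Th17, Treg and Th1 cultures. In Th17 cultures all probe sets of Nrp1, Itgae, Gpr83 and Ikzf4 lie below 0, between -3.16 and -1.26.

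The genes most like Foxp3 were ranked by the root mean square difference between their log2 profiles, each centred on its own mean, over the 14 arrays. A value of 0 would be an identical profile, Foxp3 itself had a spread of 1.68, and the median over genes was 1.65. The closest 5 of 10915 genes were Pde2a (0.58), Cd96 (0.62), Gm4951 (0.66), Ighv14-2 (0.69) and Rab11fip2 (0.75), and the same 5 led after quantile normalization. Pde2a, a cyclic nucleotide phosphodiesterase, had mean signals of 122 in Th17 cultures with acetate and 412 without, 156 in Treg cultures with acetate and 913 without, and 54.2 and 53.6 in Th1 cultures with and without acetate. Cd96, a receptor for the adhesion protein CD155, had 91.0 and 301 in Th17, 155 and 760 in Treg, and 48.0 and 94.04 in Th1 cultures, with acetate and without. These genes were picked for this likeness, and all arrays share the scale differences given above. Of the other 8 genes, Itgae ranked 61, Nrp1 105, Ikzf2 147 and Gpr83 613, while Ctla4, Ikzf4, Tnfrsf18 and Tnfrsf4 ranked between 3791 and 6618. Among the 9 genes Foxp3 was nearest to Itgae (1.09), Nrp1 to Ikzf4 (0.81), Gpr83 to Nrp1 (0.89), Itgae to Gpr83 (1.08), Ctla4 to Tnfrsf4 (0.42) and Tnfrsf18 to Tnfrsf4 (0.34), where the own spreads of these 6 genes ranged from 0.42 to 2.02. Ikzf4 was nearest to Tnfrsf18 (0.79). For Ikzf2 and Tnfrsf4 no other gene of the 9 was closer than a flat profile would be, since their own spreads of 0.88 and 0.25 lay below their smallest differences of 0.89 and 0.34.

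Genes around these 9 were read from 5 lists. Of 20 factors reported to induce Foxp3 or to act with it, 6 fell and 1 rose with acetate in Th17 cultures, where 13.4% of all genes were called lower and 4.28% higher, with a median log2 difference of -0.56 beside -0.29 over all genes. The largest were Cbfb (-1.77), the partner subunit of the Runx factors, Gata3 (-1.61), Lef1 (-1.10) and Irf4 (-1.02). In Treg cultures 2 of 20 fell, Cbfb (-1.31) and Lef1 (-1.30), where 2.73% of all genes were called lower, at a median of -0.34 beside -0.13. In Th1 cultures 1 of 20 rose, Ezh2 (1.51), the histone methyltransferase of the Polycomb complex, which also rose in Th17 cultures (1.00). Cbfb had a mean signal of 340 in Th17 cultures with acetate, against 1176 in control cultures, and of 253 in Treg cultures with acetate, against 643 in control cultures. After quantile normalization 5 were lower and 1 higher in Th17 cultures, where 8.67% of all genes were called lower and 11.7% higher. In Treg cultures 3 were lower (5.45% of all genes called lower). In Th1 cultures 1 was lower and 1 higher (1.92% of all genes called lower and 2.1% higher).

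Other genes of the Treg program moved in both directions. Of 20 tested, 5 rose and 3 fell with acetate in Th17 cultures (4.28% of all genes called higher and 13.4% lower), 3 rose in Treg cultures (2.31% of all genes called higher) and 3 rose in Th1 cultures (1.63%), with medians of -0.21, 0.15 and -0.01. In Th17 cultures the largest were the cytokine signalling suppressor gene Socs2 (-1.68), Plagl1 (1.52), the proenkephalin gene Penk (1.49) and Cd83 (1.28). Il10, an anti-inflammatory cytokine gene that other T cells also use, had a mean signal of 755 in Treg cultures with acetate, against 75.2 in control cultures (log2 difference 3.28, adjusted p = 0.0038), and of 841 in Th1 cultures with acetate, against 64.0 in control cultures (4.53, adjusted p = 3.54e-04). Il2ra, the IL-2 receptor alpha chain, rose by 1.51 in Treg and 1.45 in Th1 cultures, Ccr4 by 1.68 in Treg cultures and Entpd1, which encodes the ectonucleotidase CD39, by 1.67 in Th1 cultures. After quantile normalization 6 rose and 2 fell in Th17 cultures (11.7% of all genes called higher and 8.67% lower). In Treg cultures 4 rose (7.05% called higher). In Th1 cultures 2 rose and 1 fell (2.1% called higher and 1.92% lower), and Il2ra was at 1.03 there (adjusted p = 0.073).

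Among ligands and partner chains of the surface genes, 3 of the 11 tested fell in Th17 cultures, where 13.4% of all genes were called lower, with a median of -0.61 beside -0.29 over all genes. These were Cd86 (-2.17), which encodes a ligand of CTLA-4, Itgb7 (-1.44), which encodes the beta chain that pairs with the product of Itgae, and Sema4a (-1.02), a semaphorin gene. Itgb7 had a mean signal of 294 with acetate, against 760.1 in control cultures, of the Th17 subset. Tnfsf4, which encodes the ligand of OX40, was the 1 gene of this list that fell in Treg cultures (-1.75, where 2.73% of all genes were called lower) and in Th1 cultures (-2.22, where 0.412% of all genes were called lower), with medians of -0.33 and -0.16 for the list. Of the other Ikaros family genes Ikzf1, Ikzf3 and Ikzf5, limma called 0 of 3 in each acetate comparison, with 1 at an unadjusted p under the threshold in each. After quantile normalization Ikzf3 was higher in Th17 cultures (0.89, adjusted p = 0.021) and Ikzf1 lower in Treg cultures (-0.63, adjusted p = 0.033). Of 9 genes reported as repressed by Foxp3, 3 fell in Th17 cultures, Il21 (-2.43), Il7r (-1.60) and Il4 (-1.41), where 13.4% of all genes were called lower. The median of these 9 was -0.52 in Th17 cultures, beside -0.29 over all genes. In Treg and Th1 cultures limma called 0 of these 9, with 2 and 1 at an unadjusted p under the threshold and medians of 0.01 and -0.30. Il21 had a mean signal of 248 in Th17 cultures with acetate, against 1353 in control cultures.

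**Figure D5:**
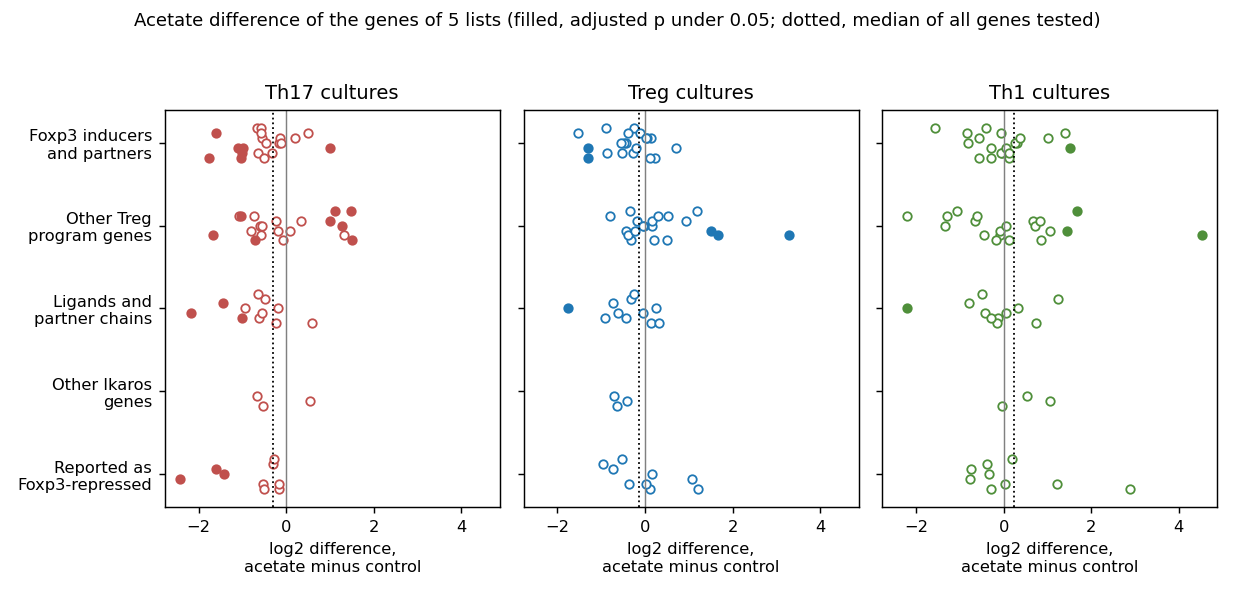
Log2 difference, acetate minus control, of each tested gene of the 5 lists in Th17, Treg and Th1 cultures (filled where the adjusted p is under 0.05), with the median of all genes tested as a dotted line at -0.29, -0.13 and 0.23. The filled points of the Foxp3 inducers lie left of the line in Th17 and Treg cultures with the exception of Ezh2 at 1.00, while those of the other Treg genes in Treg and Th1 cultures lie to its right, between 1.45 and 4.53.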

How the data were processed

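RNA of 14 cultures in 6 groups was measured on Affymetrix arrays, and those of the Treg and Th1 samples are Mouse 430 2.0 arrays per the labels' protocols. For each array the authors deposited a MAS5 signal intensity of every probe set, not logged. MAS5 is named per the submitters' processing notes, and which release and scaling target were used is not given in the sources used here. Detection calls were not used, and precision is limited by the few arrays.

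Of 45101 probe sets 34958 had 1 symbol in the platform annotation given, 932 had more than 1 and 9211 had none; the 64 array controls were left out. Deposited signals were turned into log2(signal + 3), where 3 is near the 25th percentile of all values, so a log2 difference understates the change of dim genes. Where a gene had several probe sets, the one with the highest mean stood for it. Genes with a mean under the 40th percentile (3.60, a signal of about 9.10) were dropped, and limma 3.58.1 under R 4.3.3 was run on the remaining 10916 with 6 group means, no covariate and eBayes with a trend, leaving 8 residual degrees of freedom. Each adjusted p comes from limma after Benjamini-Hochberg adjustment across the genes tested, and a call means a value under 0.05. On simulated data for these genes the fit recovered 96%, 85% and 82% of log2 changes of 2 in Th17, Treg and Th1 cultures, and 26%, 14% and 16% of log2 changes of 1.

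The 20 alternatives were quantile normalization, pseudocounts of 1 and 16, no filter, the mean of a gene's probe sets, a replicate block, and leaving out each array. A fit over all probe sets with 1 symbol was chosen after seeing the data. The design took the arrays to be on a common scale after MAS5; they were not, the planned fit was kept, and quantile-normalized values stand beside it. No scan date or batch is given, so a batch that coincides with a group cannot be told apart from it. A lone array left in a group was taken to vary as much as those elsewhere.

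The 10 genes, the lists and the comparisons were chosen with earlier results of these data known. The rule for named genes took all 10 in every comparison, the 5 genes closest to Foxp3, each gene's nearest among the rest, up to 4 called genes per list and comparison with the largest log2 difference, and cell type markers by their ranges. Promoter windows run from 250 bases before to 50 after a start site, from the RefSeq table of GRCm38.p6, searched on both strands. Figures were drawn with matplotlib 3.10.9.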

Additional observations from a re-analysis of the deposited data

Results flagged for a closer look

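The acetate effect of Foxp3 differed between the 3 subsets by limma's F test (adjusted p = 0.042), with log2 differences of -2.70 (Th17), -2.55 (Treg) and 0.09 (Th1). The result was lost with a pseudocount of 1 (adjusted p = 0.053), no filter (0.10) and the mean of probe sets (0.059), and held after quantile normalization (0.048). It was also lost without Th17 control replicate 1 (0.11), Th17 control replicate 3 (0.076), Treg acetate replicate 1 (0.097), Treg acetate replicate 2 (0.059), Treg control replicate 1 (0.077), Treg control replicate 2 (0.12) or Th1 control replicate 2 (0.11).

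The acetate effect of Nrp1 also differed between subsets by this test (adjusted p = 0.015), with log2 differences of -2.67 (Th17), -1.64 (Treg) and 0.02 (Th1). The result was lost after quantile normalization (adjusted p = 0.055) and with the mean of probe sets (0.066), and without Th17 control replicate 1 (0.056), Treg acetate replicate 1 (0.053) or Treg control replicate 2 (0.065). In both genes the signals of Th1 cultures were low with acetate and without it.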

How the results depend on the processing

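Over the 9 genes, 11 comparisons and 20 alternatives, 1859 of 1980 values kept their side of the threshold, 93 lost a call, 28 gained one and 0 reversed a call. Most of the 1980 belong to differences not called in the planned fit, so the 93 lost calls come from the smaller part that was called. Of the 1800 signed differences among the 1980 values 54 changed sign, each of them uncalled on both sides. The Foxp3 calls for acetate in Th17 and Treg cultures and the Nrp1 and Itgae calls in Th17 cultures were among those never lost. Leaving out 1 array gave 3 to 5 called genes for acetate in Th17 cultures, 1 to 3 in Treg cultures, 0 to 2 in Th1 cultures and 5 to 6 for their mean. It gave 4 to 6 for untreated Th17 against Th1, 2 to 5 for Treg against Th1 and 1 to 5 for Th17 against Treg cultures, and with acetate 1 to 3, 0 to 4 and 0 to 1. For the difference between the acetate effects it gave 0 to 2. Quantile normalization gave 1 called gene in place of 0 for acetate in Th1 cultures, 2 in place of 5 for untreated Th17 against Treg cultures, 1 in place of 2 for Th17 against Th1 with acetate, 1 in place of 0 for Th17 against Treg with acetate, and 1 in place of 2 for the difference between effects. For Th17 against Th1 with acetate no filter, the mean of probe sets and the replicate block gave 1 each. For Treg against Th1 with acetate a pseudocount of 16 gave 1, and no filter and the mean of probe sets gave 0 each. For the difference between effects a pseudocount of 1 and no filter gave 1 each, and the mean of probe sets gave 0. Same-numbered arrays showed little positive correlation of their deviations from group means (r = -0.50 to 0.16 over 31 pairs, 4 of them over 0.1). The lowest were Th17 against Th1 cultures with acetate (r = -0.50 for replicate 1 and -0.38 for replicate 2). In groups of 2 the deviations mirror each other, and whether arrays of unlike number deviated together was not tested. The replicate block also gave 1 called gene in place of 0 for Th17 against Treg with acetate (Foxp3, -1.91, adjusted p = 0.020), and counts within 1.5 times elsewhere. The cause of these changes was not tested. Signals of Foxp3 and Itgae in Th1 cultures lay near or under 9.10, where a fall could not be measured well.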
